A study of Mus musculus with 10 samples.

Results

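The 10 genes described here are a set of transcripts of tissue-resident macrophages together with the 3 chains of complement component C1q: Csf1r, Adgre1, C1qa, C1qb, C1qc, Cd163, Lyve1, Folr2, Mertk and Trem2. They were taken by name from the GENCODE M21 annotation, and all 10 were found among the 49671 gene IDs of each file. All 10 passed the filter on low counts, as did 18060 genes in all. Poly(A) RNA of whole skin was sequenced from 5 mice homozygous for the altered Npy allele of the B6;129S4-Npytm2Rpa/J strain (NPYtet) and from 5 wildtype siblings (WT), all aged 22 weeks. The NPYtet libraries are labelled 2 male and 3 female, and the WT libraries 3 male and 2 female. Both groups share the mixed strain background, and the labels name no drug treatment in either. Npy encodes neuropeptide Y, a transmitter of sympathetic nerves and brain neurons, and it was at 96.1 to 485 CPM (counts scaled to a common library size) in NPYtet skin, against 0.0939 to 2.85 CPM in WT skin.

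Macrophages that live in the dermis depend on the receptor encoded by Csf1r and clear dead cells, haemoglobin and microbes from the tissue. C1q starts the classical complement pathway when it binds antibody or other surfaces, and it also coats dying cells for uptake. In most tissues it is made by macrophages and related myeloid cells, and each C1q molecule holds its A, B and C chains in equal number. Cd163, Lyve1 and Folr2 mark macrophages that sit along vessels, Mertk and Trem2 encode receptors for dying cells and lipids, and Adgre1 encodes F4/80, the classical mouse macrophage antigen. Lyve1 is also a marker of lymphatic endothelium, and Langerhans cells of the epidermis use several of these genes.

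The C1q genes lie side by side on the minus strand of chromosome 4 (mm10): C1qa at 136895917 to 136898803, C1qc at 136889804 to 136893065 and C1qb at 136880129 to 136886187. The gaps between them are 2851 and 3616 bases, and the cluster spans 18675 bases. Promoter windows of RefSeq (GRCm38.p6), from 250 bases before to 50 bases after a start site, were found for 6 of the 10 genes. C1qb and C1qc are shown because their transcripts moved together over the libraries, Cd163 because it had the largest fitted difference between the genotypes, and Trem2 because it varied the other way from Cd163. Capitals mark the 6 letters GAGGAA on either strand, a core motif of PU.1 and related ETS factors. PU.1 is the factor that sets the macrophage lineage. The windows are chr4:136886151-136886450 (minus strand) for C1qb, chr4:136892865-136893164 (minus strand) for C1qc, chr6:124304401-124304700 (plus strand) for Cd163 and chr17:48346151-48346450 (plus strand) for Trem2.
C1qb: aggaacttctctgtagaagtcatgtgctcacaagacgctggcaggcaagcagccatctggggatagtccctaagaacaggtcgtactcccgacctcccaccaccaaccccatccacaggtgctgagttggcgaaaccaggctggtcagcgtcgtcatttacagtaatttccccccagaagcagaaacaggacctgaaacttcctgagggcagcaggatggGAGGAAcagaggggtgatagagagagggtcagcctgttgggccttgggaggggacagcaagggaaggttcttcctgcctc
C1qc: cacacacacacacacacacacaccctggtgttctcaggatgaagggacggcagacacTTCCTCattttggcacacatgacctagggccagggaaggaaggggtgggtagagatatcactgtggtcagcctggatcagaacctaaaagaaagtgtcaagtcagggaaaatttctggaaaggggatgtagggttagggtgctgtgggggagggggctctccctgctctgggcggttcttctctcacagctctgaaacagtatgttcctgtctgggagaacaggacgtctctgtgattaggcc
Cd163: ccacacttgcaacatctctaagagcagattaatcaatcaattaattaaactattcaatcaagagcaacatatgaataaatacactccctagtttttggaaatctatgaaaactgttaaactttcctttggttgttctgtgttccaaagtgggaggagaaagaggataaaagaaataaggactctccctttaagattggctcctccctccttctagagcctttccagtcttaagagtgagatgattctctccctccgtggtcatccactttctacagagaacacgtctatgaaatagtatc
Trem2: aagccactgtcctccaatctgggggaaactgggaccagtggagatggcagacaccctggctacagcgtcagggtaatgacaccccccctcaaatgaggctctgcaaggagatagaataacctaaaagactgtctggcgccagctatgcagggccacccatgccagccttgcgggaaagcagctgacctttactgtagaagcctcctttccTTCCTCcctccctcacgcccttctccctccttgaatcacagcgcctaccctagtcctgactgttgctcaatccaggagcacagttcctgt
The motif occurred 1 time each in the windows of C1qb, C1qc and Trem2, beginning 30, 193 and 40 bases before the start site, and it was not in the window of Cd163, nor in that of Mertk or either window of Folr2. Of all 32851 windows in the table, 28.3% hold it. TTGCNNAA, a C/EBP motif, began 22 bases after the start site of Trem2 (in 10.8% of all windows), and CACGTG, an E-box (7.15%), was in none of the windows of these genes. RefSeq start sites can differ from those of the gene models used for counting.

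The other genes are spread over the genome. Csf1r is on chromosome 18, Adgre1 and Trem2 on chromosome 17, Cd163 on chromosome 6, Lyve1 and Folr2 on chromosome 7 and Mertk on chromosome 2. Exons of Csf1r overlap those of Hmgxb3, and exons of Folr2 those of the antisense gene Gm10602, in both cases on the opposite strand. No source used here gives the strand setting of the counts, so reads of such partners cannot be told apart. Hmgxb3 was at 14.3 to 86.02 CPM where Csf1r was at 61.5 to 241 CPM, and Gm10602 at 0.528 to 1.65 CPM where Folr2 was at 1.42 to 8.62 CPM.

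Total counts were 23209405 to 37941704 reads in NPYtet libraries and 27207273 to 53357695 reads in WT libraries. The scaling factor, which corrects a library for its composition, was 0.652 in NPYtet replicate 5, 0.696 in WT replicate 2 and 0.898 in WT replicate 5, against 1.03 to 1.21 in the other 7. The ribosomal RNA gene CT010467.1 took 4.40% of reads in NPYtet replicate 5 and 1.67% in WT replicate 2, against 0.222% to 0.406% in the other 8. Mitochondrial genes took 9.26% of reads in NPYtet replicate 5, against 1.86% to 3.03% in the other libraries. That library also had the fewest genes with a read, 19953 against 21144 to 26323. NPYtet replicate 1 is labelled female but had 37.2 CPM of the Y-linked gene Ddx3y and 0.0491 CPM of Xist, the pattern of a male library. Its label was kept in the fit, so every value by sex below rests on that label, and values without this library are given beside those of the 10 genes. The fitted genotype values rest on it too, through the sex term of the fit. In whole skin, fewer macrophages and less RNA per macrophage cannot be told apart.

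Skin held these transcripts at very different levels. Levels between genes are compared here as RPKM (CPM per kilobase of exon, mean over 10 libraries ± SD). C1qb stood at 151 ± 64.8 RPKM and C1qa at 133 ± 53.7 RPKM, and C1qb was the higher of the pair in 8 of 10 libraries. C1qc followed at 63.3 ± 22.1 RPKM, below C1qa in 10 of 10 libraries, and Csf1r at 26.3 ± 9.24 RPKM, below C1qc in 10 of 10. Adgre1 at 15.5 ± 8.80 RPKM, Cd163 at 12.4 ± 7.91 RPKM and Lyve1 at 10.95 ± 4.33 RPKM were not separated from each other: Adgre1 exceeded Cd163 in 7 of 10 libraries, and Cd163 exceeded Lyve1 in 4 of 10. Mertk was at 3.57 ± 1.68 RPKM and Folr2 at 2.89 ± 1.64 RPKM, in that order in 6 of 10 libraries, and Trem2 was lowest at 0.609 ± 0.446 RPKM, below Folr2 in 10 of 10. Trem2 rested on 43 to 205 reads a library and Folr2 on 23 to 351, so they carry more counting error than C1qa, which had 2305 to 7385 reads.

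None of the 10 genes differed between the genotypes beyond the spread between mice. In edgeR's quasi-likelihood test with a term for labelled sex, 0 of 10 passed the threshold of 0.05 after Benjamini-Hochberg adjustment over all genes (adjusted p = 0.999 for each), and 0 had an unadjusted p under 0.05. Over all genes 0.00554% passed after adjustment and 3.59% had an unadjusted p under 0.05. DESeq2 and limma voom likewise called 0 of the 10, and 0 had an unadjusted p under 0.05 with either. Of the 10 fold changes, 7 were positive, with a median of 0.05 on the log2 scale, beside a median of -0.01 over all 18060 genes, of which 48.8% were positive. This count of positive changes was 2 of 10 without NPYtet replicate 1, and also without WT replicate 1. It was 3 with limma voom or without WT replicate 4, and 8 with upper quartile scaling. Over the 21 alternatives the median ran from -0.18 to 0.20. In no gene of the set did the 5 NPYtet libraries lie wholly above or below the 5 WT libraries, which was the case for 0.305% of all genes. The count of called genes stayed at 0 of 10 in all 21 alternatives of processing and left-out libraries. In the main fit, the edgeR test above, markers of other skin cell types had 0 called genes as well. Hair shaft and sheath markers had 0 of 13 positive (median -4.40, but -0.98 without WT replicate 1), melanocyte markers 0 of 6 (median -3.46, but -1.66 with limma voom), fibroblast markers 6 of 6 (median 0.68, but 0.05 without NPYtet replicates 1 and 5 and WT replicate 2) and white adipocyte markers 7 of 7 (median 0.82). Unlike the 10 genes, some of these markers were called under alternatives. With no filter on low counts, 13 of 13 hair, 5 of 6 melanocyte and 1 of 7 white adipocyte markers were called. DESeq2 called 3 hair and 3 melanocyte markers, and 3 melanocyte markers were called without WT replicate 3. The part of these cell types in the macrophage levels was not tested.

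**Figure D1:**
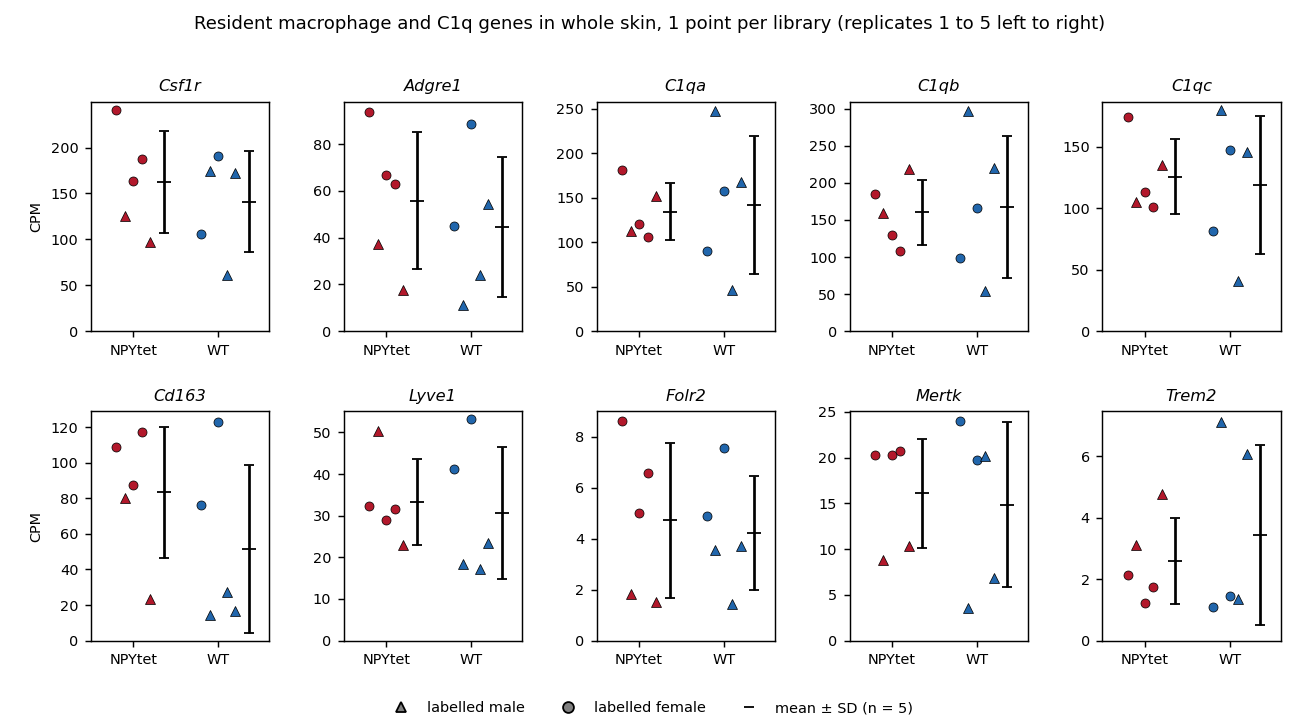
CPM (y axis, linear, from 0) of each gene in the 5 NPYtet and 5 WT libraries, with triangles for libraries labelled male, circles for those labelled female and bars for the mean ± SD. The groups overlap in every panel, and the 5 male libraries lie below the 5 female libraries in the panel of Folr2.

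Csf1r encodes the receptor for the growth factors CSF1 and IL-34, on which most resident macrophages depend. It was at 241, 126, 164, 187 and 97.1 CPM in NPYtet replicates 1 to 5, and at 106, 174, 191, 61.5 and 172 CPM in WT replicates 1 to 5. NPYtet replicate 1 was the highest library and WT replicate 4 the lowest, and the groups covered much the same range. The log2 fold change was 0.06 (SE 0.35), with a 95% interval of -0.69 to 0.82.

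Adgre1, the gene of F4/80, was at 93.9, 37.3, 67.0, 62.8 and 17.8 CPM in NPYtet replicates 1 to 5. In WT replicates 1 to 5 it was at 45.2, 11.1, 88.6, 23.9 and 54.4 CPM. Each group thus held 1 library near 90 and 1 under 20 CPM. Its log2 fold change was 0.02 (SE 0.40).

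The C1q chains gave the same picture as one another. C1qa was at 181, 113, 120.1, 106 and 152 CPM in NPYtet replicates 1 to 5, and at 90.3, 248, 157, 46.3 and 168 CPM in WT replicates 1 to 5. The highest and the lowest library were both WT, replicates 2 and 4, and the NPYtet libraries lay between them. C1qb was at 186, 159, 130.3, 108 and 219 CPM in NPYtet replicates 1 to 5, and at 98.9, 297, 167, 54.8 and 219.8 CPM in WT replicates 1 to 5. C1qc was at 175, 105, 113, 101 and 135 CPM in NPYtet replicates 1 to 5, and at 81.3, 179.5, 147, 40.9 and 145 CPM in WT replicates 1 to 5. The spread was wider in WT for all 3 chains: the mean of C1qa was 135 ± 31.7 CPM in NPYtet and 142 ± 77.3 CPM in WT (SD, n = 5 each), and no test of the spread was made. The log2 fold changes were -0.04 (SE 0.40) for C1qa, 0.04 (SE 0.40) for C1qb and 0.08 (SE 0.38) for C1qc. Their 95% intervals, -0.89 to 0.81, -0.81 to 0.89 and -0.73 to 0.89, leave out a 2-fold change in either direction but hold smaller ones.

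The chains varied less against each other than each did by itself. The ratio of C1qb to C1qa reads was 1.02, 1.41, 1.08, 1.02 and 1.43 in NPYtet replicates 1 to 5, against 1.10, 1.20, 1.06, 1.18 and 1.31 in WT replicates 1 to 5. The ratio of C1qc to C1qa was 0.962, 0.930, 0.940, 0.958 and 0.885 in NPYtet, against 0.900, 0.725, 0.935, 0.884 and 0.867 in WT. While each chain ranged 4.39-fold to 5.42-fold over the libraries, these ratios stayed within 1.02 to 1.43 and 0.725 to 0.962, and that of C1qc to C1qb within 0.604 to 0.941. On the log2 scale the genotypes differed by 0.02 in C1qb to C1qa (exact permutation p = 0.889, adjusted over the 3 ratios 0.889), by 0.12 in C1qc to C1qa (exact permutation p = 0.0556, adjusted 0.167) and by 0.10 in C1qc to C1qb (exact permutation p = 0.516, adjusted 0.774), two-sided, n = 5 each. None of the 3 ratios passed, and the smallest p that 252 divisions of the libraries can give is 0.00794. Unlike the gene fits, this permutation test had no term for labelled sex, and the labelled sexes are not balanced between the genotypes.

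**Figure D2:**
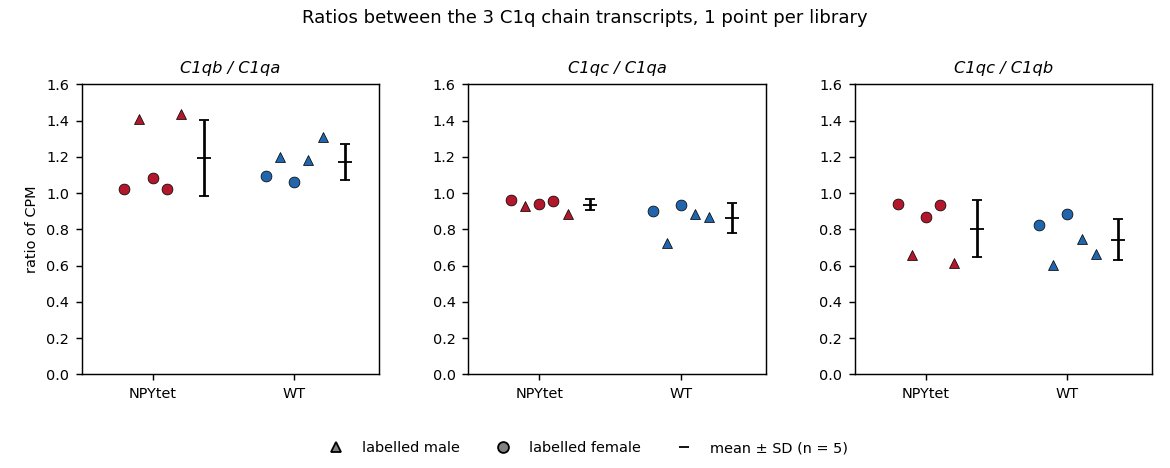
Ratio of CPM between pairs of C1q chains (y axis, from 0) in each NPYtet and WT library, with the mean ± SD of 5 libraries as bars. All C1qb to C1qa ratios lie between 1.02 and 1.43, with triangles (labelled male) above circles (labelled female) in both groups.

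Cd163, the scavenger receptor for haemoglobin bound to haptoglobin, had the largest fitted difference of the set. It was at 109, 80.0, 87.2, 117 and 23.3 CPM in NPYtet replicates 1 to 5, and at 76.4, 14.4, 123, 27.5 and 16.8 CPM in WT replicates 1 to 5. In NPYtet skin 4 of 5 libraries were above the WT median, yet the highest library of all was WT replicate 3. The mean was 83.3 ± 36.8 CPM in NPYtet and 51.6 ± 47.1 CPM in WT (SD, n = 5 each), which was fitted as a log2 difference of 0.73 (SE 0.38, 95% interval -0.08 to 1.55, unadjusted p = 0.0753 and adjusted p = 0.999 by edgeR). Without NPYtet replicate 2 it was 0.13, and without WT replicate 3 it was 1.02 (unadjusted p = 0.0253 by edgeR). The unadjusted p was also 0.0389 without NPYtet replicate 5 and 0.0348 with no filter on low counts, and the adjusted p was at least 0.750 under all 21 alternatives (edgeR, DESeq2 or limma).

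Lyve1, a hyaluronan receptor, was at 32.3, 50.4, 28.9, 31.6 and 23.0 CPM in NPYtet replicates 1 to 5. It was at 41.3, 18.4, 53.1, 17.1 and 23.4 CPM in WT replicates 1 to 5, and its log2 fold change was 0.15 (SE 0.34). The 2 highest libraries were 1 of each genotype. Of 6 lymphatic endothelium markers 5 were tested and 0 called, with Prox1, the regulator of lymphatic identity, at 0.46 (SE 0.38). Their summed level was 90.8 to 307 CPM in NPYtet and 90.6 to 161 CPM in WT. NPYtet replicate 2, the second highest for Lyve1, was highest for this sum at 307 CPM, and the part of these cells in Lyve1 was not tested.

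Folr2, a folate receptor of macrophages, was at 8.62, 1.84, 4.997, 6.56 and 1.52 CPM in NPYtet replicates 1 to 5, and at 4.87, 3.54, 7.56, 1.42 and 3.71 CPM in WT replicates 1 to 5. Its log2 fold change was -0.31 (SE 0.40), although its mean was 4.71 ± 3.05 CPM in NPYtet and 4.22 ± 2.24 CPM in WT (SD, n = 5 each); without the sex term the fitted change was 0.16. It ran from -0.53 without WT replicate 1 to -0.13 without NPYtet replicate 5. Both NPYtet libraries labelled male were under 2 CPM.

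Mertk, a receptor kinase for bridging proteins on dying cells, was at 20.3, 8.77, 20.3, 20.8 and 10.3 CPM in NPYtet replicates 1 to 5, and at 24.0, 3.54, 19.7, 20.2 and 6.88 CPM in WT replicates 1 to 5. In each genotype 3 libraries were near 20 CPM and 2 were at 10.3 CPM or less. The log2 fold change was -0.10 (SE 0.39). Trem2, a lipid-sensing receptor that signals through the adaptor Tyrobp, was at 2.14, 3.11, 1.22, 1.76 and 4.76 CPM in NPYtet replicates 1 to 5, and at 1.11, 7.13, 1.46, 1.36 and 6.08 CPM in WT replicates 1 to 5. The libraries that were low for Mertk were those high for Trem2, in both genotypes. Its log2 fold change was 0.05 (SE 0.47, 95% interval -0.95 to 1.05).

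Levels varied widely between libraries, and this variation did not run the same way in all 10 genes. Over the 10 libraries the highest level was 3.10 times the lowest for Lyve1 and 3.91 times for Csf1r, but 8.43 times for Adgre1 and 8.52 times for Cd163. The SD over libraries of the log2 difference between a pair of genes served as a measure of likeness, a small value meaning that the pair moved together. Among the 45 pairs it was smallest for C1qa with C1qc at 0.12, C1qa with C1qb at 0.18 and C1qb with C1qc at 0.25. Csf1r came next, at 0.37 with C1qc. The largest values all involved Trem2: 1.76 with Adgre1, 1.86 with Mertk and 2.06 with Cd163. All pairs share the same libraries, depths and scaling.

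**Figure D3:**
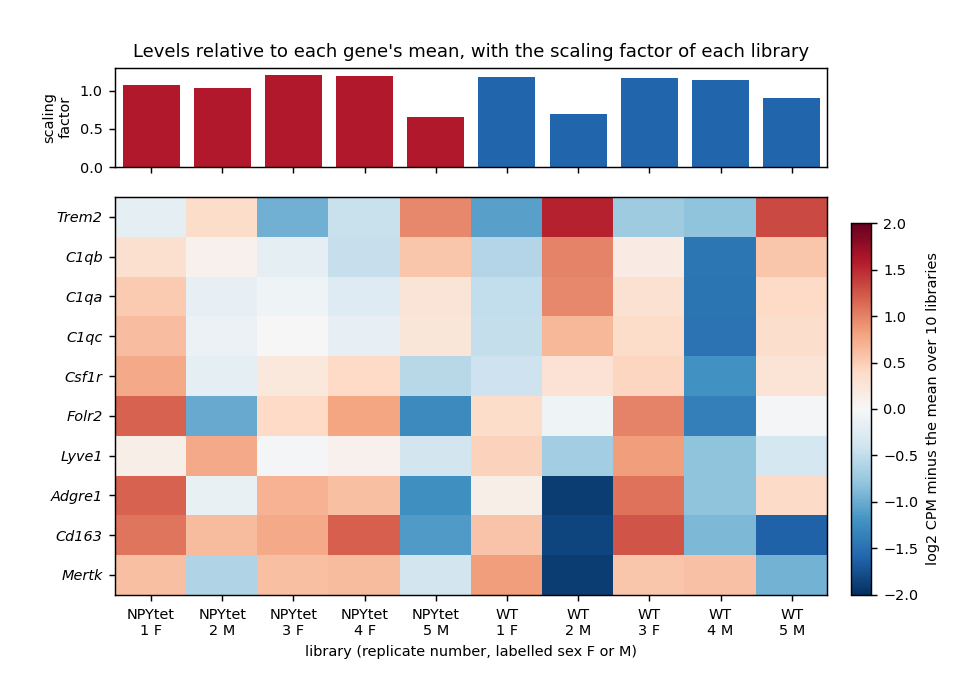
Colours give log2 CPM of each gene (rows) minus its mean over 10 libraries, and the bars above give the scaling factor of each library; columns are NPYtet replicates 1 to 5, then WT replicates 1 to 5, with the labelled sex. NPYtet replicate 5, WT replicate 2 and WT replicate 5, with factors of 0.652, 0.696 and 0.898, are high for Trem2 and low for Cd163 and Mertk.

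Cd163 and Mertk were lowest relative to C1qa in the 3 libraries with the lowest scaling factors. The ratio of Cd163 to C1qa reads was 0.598, 0.708, 0.726, 1.11 and 0.153 in NPYtet replicates 1 to 5, against 0.846, 0.0582, 0.782, 0.595 and 0.0999 in WT replicates 1 to 5. NPYtet replicate 5, WT replicate 2 and WT replicate 5 were the 3 lowest, and the other 7 libraries lay between 0.595 and 1.11. Mertk to C1qa was 0.112, 0.0777, 0.169, 0.196 and 0.0677 in NPYtet, against 0.266, 0.0143, 0.126, 0.436 and 0.0410 in WT, with the same 3 libraries lowest. Summed keratinocyte markers were 39845 CPM in NPYtet replicate 5, 61640 CPM in WT replicate 2 and 35143 CPM in WT replicate 5, against 10289 to 24333 CPM in the other 7. The part of RNA quality and of epidermal content in these ratios was not tested.

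WT replicate 4 was lowest of all libraries in Csf1r, the 3 C1q chains, Lyve1 and Folr2. Its sum over the 10 genes was 295 CPM, against 569.6 to 957 CPM in the other WT libraries and 684 to 1048 CPM in NPYtet. The sum of 20 general macrophage genes was also lowest there, at 551 CPM, against 866 to 1516 CPM in the other WT libraries and 954 to 1417 CPM in NPYtet libraries. Summed hair shaft and sheath markers were 18081 CPM in WT replicate 4, within 277 to 25155 CPM over WT and beside 15.4 to 12804 CPM in NPYtet; their part in the macrophage levels was not tested.

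By labelled sex, Cd163 was lower in male skin. It was at 14.4 to 80.0 CPM (median 23.3) in the 5 libraries labelled male and at 76.4 to 123 CPM (median 109) in the 5 labelled female, fitted as a log2 difference of -1.68 (SE 0.39, edgeR adjusted p = 0.0384), with 4 of 5 male libraries below every female one. It was the 1 of 10 genes called by sex, where 2.48% of all genes were called, 1.12% lower and 1.36% higher in male skin. Without NPYtet replicate 1 the change was -1.70 and kept its call (edgeR adjusted p = 0.0420). The call ended without WT replicate 2 (-1.52), WT replicate 3 (-1.40), WT replicate 5 (-1.56), NPYtet replicate 3 (-1.81), NPYtet replicate 4 (-1.72) or NPYtet replicate 5 (-1.49), with edgeR adjusted p between 0.0694 and 0.159. In the same order, 209, 58, 269, 97, 89 and 579 of all genes were called by sex, against 448 with all 10 libraries. All 3 libraries of low scaling factor are labelled male, and without NPYtet replicate 5 and WT replicate 2 the change was -1.29 (edgeR adjusted p = 0.0873).

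Folr2 was the 1 gene of the set whose sexes did not overlap, at 1.42 to 3.71 CPM (median 1.84) in male and 4.87 to 8.62 CPM (median 6.56) in female libraries; 8.46% of all genes did not overlap between the labelled sexes. Its highest library was NPYtet replicate 1, labelled female but with the Xist and Ddx3y levels of a male library, so the separation holds by label only. The fitted log2 difference was -1.54 (SE 0.41, edgeR adjusted p = 0.0619). Adgre1 was at -1.30 (SE 0.41, edgeR adjusted p = 0.0918), with 11.1 to 54.4 CPM in male and 45.2 to 93.9 CPM in female libraries. Mertk was at -1.10 (SE 0.40, edgeR adjusted p = 0.119), with 3.54 to 20.2 CPM in male and 19.7 to 24.0 CPM in female libraries. Trem2 went the other way, at 1.55 (SE 0.48, edgeR adjusted p = 0.0871), with 1.36 to 7.13 CPM in male and 1.11 to 2.14 CPM in female libraries. Without NPYtet replicate 1 these changes were -1.37 for Folr2 (SE 0.43), -1.15 for Adgre1 (SE 0.43), -1.06 for Mertk (SE 0.42) and 1.72 for Trem2 (SE 0.51), with edgeR adjusted p of 0.0875, 0.122, 0.148 and 0.0784. With all 10 libraries an unadjusted p under 0.05 was reached by these 4 and Cd163, and by 24.6% of all genes. Csf1r, C1qa, C1qb, C1qc and Lyve1 had sex changes of -0.48, 0.14, 0.47, -0.01 and -0.51, and none of them had an unadjusted p under 0.05. Without NPYtet replicate 1 their changes were -0.33, 0.32, 0.63, 0.17 and -0.54, again with no unadjusted p under 0.05, and C1qc took the other sign.

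**Figure D4:**
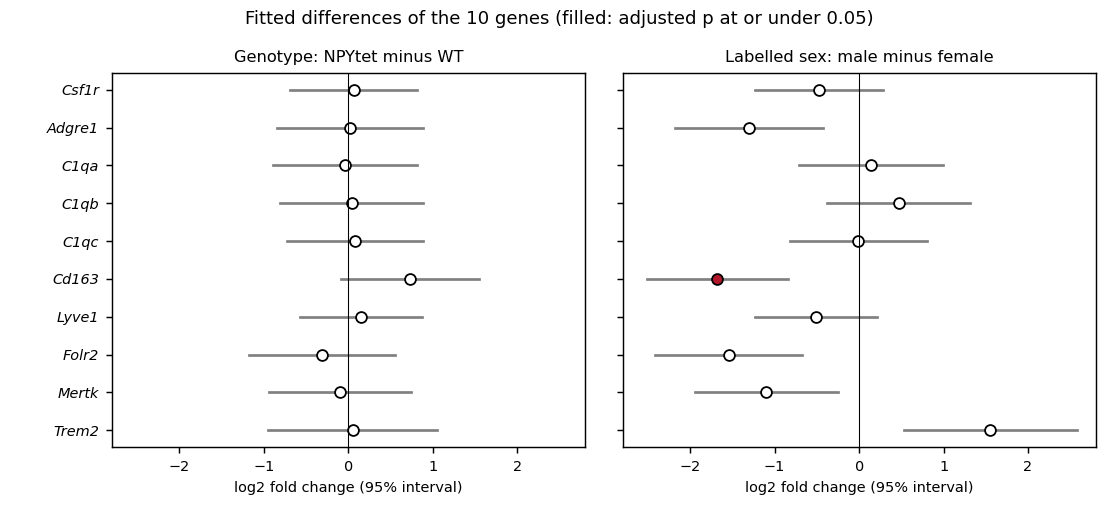
Fitted log2 fold change of each gene with its 95% interval, for NPYtet minus WT (left) and for male minus female by label (right); a filled point has an adjusted p at or under 0.05. All 10 genotype intervals include 0, and Cd163 at -1.68 by sex is the 1 filled point.

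The genotype difference was also fitted within each labelled sex. For Cd163 it was 1.40 (SE 0.51) in males, with 80.0 and 23.3 CPM in NPYtet against 14.4, 27.5 and 16.8 CPM in WT, and 0.07 (SE 0.51) in females, with 109, 87.2 and 117 CPM in NPYtet against 76.4 and 123 CPM in WT. For Lyve1 it was 0.90 (SE 0.41) in males and -0.61 (SE 0.41) in females. The difference between the sexes was 1.33 (SE 0.72, unadjusted p = 0.0859) for Cd163 and 1.51 (SE 0.59, unadjusted p = 0.0226) for Lyve1, with an edgeR adjusted p of 0.9999 for both. The first female NPYtet value is NPYtet replicate 1, and without it the difference was 1.35 (SE 0.81, unadjusted p = 0.119) for Cd163 and 1.53 (SE 0.70, unadjusted p = 0.0462) for Lyve1, by edgeR. The genotype difference in females without that library was 0.05 (SE 0.60) for Cd163 and -0.63 (SE 0.52) for Lyve1. With all 10 libraries 0 of all genes passed this test, and 1.63% had an unadjusted p under 0.05.

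The wider macrophage programme was read from lists of other genes. Of 20 general macrophage genes, 0 were called by genotype and 15 were positive, with a median of 0.27 on the log2 scale, but 9 were positive and the median was -0.020 with limma voom. Tlr4, the receptor for bacterial lipopolysaccharide, averaged 11.1 ± 2.19 CPM in NPYtet and 6.52 ± 1.70 CPM in WT (SD, n = 5 each), which was fitted as a log2 difference of 0.76 (SE 0.31, edgeR adjusted p = 0.999). Mrc1, the mannose receptor, averaged 123 ± 19.7 CPM in NPYtet and 82.4 ± 40.1 CPM in WT (SD, n = 5 each), which was fitted as a log2 difference of 0.55 (SE 0.28), while Siglec1, a sialic acid receptor, was at -0.72 (SE 0.53) and Vsig4, a complement receptor at under 1.1 CPM in every library, at 1.09 (SE 0.72). Of 12 perivascular macrophage genes, 0 were called and 10 were positive (median 0.40), but 5 were positive and the median was -0.035 with limma voom. Igf1, a growth factor also made by fibroblasts, averaged 75.9 ± 27.4 CPM in NPYtet and 40.4 ± 28.0 CPM in WT (SD, n = 5 each), which was fitted as a log2 difference of 0.95 (SE 0.38), and the chemokine Ccl8 and the lectin Cd209g were at 0.74 (SE 0.48) and 0.59 (SE 0.38). By labelled sex, beside 1.12% of all genes called lower and 1.36% called higher in male skin, F13a1, the macrophage gene of clotting factor XIII, was called lower in male skin (-1.47, SE 0.33, edgeR adjusted p = 0.0357), with 25.1 to 87.7 CPM in male and 129.96 to 221 CPM in female libraries, and Slc15a3, a lysosomal transporter, was called higher in male skin (1.73, SE 0.43, edgeR adjusted p = 0.0498). Sex changes of the general macrophage genes were positive in 7 and negative in 13 (median -0.25). For the perivascular macrophage genes they were positive in 5 and negative in 7 (median -0.74). Without NPYtet replicate 1, 1 general macrophage gene was called higher and 1 lower in male skin, and 1 perivascular macrophage gene lower.

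Among ligands of the CSF1 receptor and transcription factors of macrophages, 0 of 11 were called by genotype and 8 were positive (median 0.20). Il34, the keratinocyte ligand of the receptor, averaged 77.4 ± 35.4 CPM in NPYtet and 48.6 ± 24.4 CPM in WT (SD, n = 5 each), which was fitted as a log2 difference of 0.65 (SE 0.41). The transcription factors Zeb2 and Cebpa were at 0.59 (SE 0.35) and 0.47 (SE 0.45). Cebpa is also a gene of sebaceous and fat cells, and its level was 617 ± 573 CPM in NPYtet and 488 ± 339 CPM in WT (SD, n = 5 each).

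Of 13 listed C1 proteases, inhibitor, early components and C1q-binding proteins, 12 were tested, 0 were called and 7 were positive (median 0.08, from -0.11 without NPYtet replicate 2 to 0.38 without NPYtet replicate 5 and WT replicate 2). C1s1, a protease of the C1 complex, averaged 115 ± 50.7 CPM in NPYtet and 76.5 ± 44.8 CPM in WT (SD, n = 5 each), which was fitted as a log2 difference of 0.36 (SE 0.35). Cd93 was at 0.45 (SE 0.34), and calreticulin (Calr) and C1qbp, which bind C1q, were both at -0.45 (SE 0.36 and 0.31).

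Genes for the uptake of dying cells had 0 of 17 called and 10 positive (median 0.07). Cd36, a scavenger receptor that fat cells and endothelium also express, averaged 465 ± 270.1 CPM in NPYtet and 211 ± 103 CPM in WT (SD, n = 5 each), which was fitted as a log2 difference of 1.14 (SE 0.45, edgeR adjusted p = 0.999). Summed white adipocyte markers were 1417 to 6199 CPM in NPYtet and 824 to 2784 CPM in WT, and their part in Cd36 was not tested. Pros1, a bridging ligand of Mertk, was at 0.58 (SE 0.32), the integrin Itgav at 0.53 (SE 0.28) and the lipid exporter Abca1 at 0.58 (SE 0.32).

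Of 13 genes of TREM2 signalling and its targets, 0 were called by genotype and 8 were positive (median 0.06). Tyrobp, the adaptor of TREM2, averaged 57.3 ± 37.0 CPM in NPYtet and 43.0 ± 24.7 CPM in WT (SD, n = 5 each), which was fitted as a log2 difference of 0.50 (SE 0.43), and the related adaptor Hcst was at 0.90 (SE 0.54). Gpnmb and the phospholipase Plcg2 were at -0.55 (SE 0.51) and -0.41 (SE 0.38). By labelled sex 12 of the 13 were positive, beside 46.2% of all genes, and 3 were called higher in male skin, beside 1.36% of all genes: Fabp5, a fatty acid carrier, at 1.87 (SE 0.33), Spp1, osteopontin, at 1.88 (SE 0.45) and Lgals3, galectin 3, at 1.79 (SE 0.43). Without NPYtet replicate 1, Spp1 was not called (1.87, SE 0.51, edgeR adjusted p = 0.0563) and 2 of 13 were. Fabp5 and Lgals3 are also keratinocyte genes, and Krt14, the keratin of basal keratinocytes, was called higher in male skin as well (2.79, SE 0.54). Krt14 was the 1 keratinocyte marker of 7 called by sex, and the list had 4 positive and 3 negative sex changes (median 0.31). The sum of the 13 genes was 17717 CPM in NPYtet replicate 5, 19254 CPM in WT replicate 2 and 13470 CPM in WT replicate 5. These are the libraries of lowest scaling factor, all labelled male. It was 5757 CPM in NPYtet replicate 2 and 4799 CPM in WT replicate 4, also labelled male, within 4379 to 5979 CPM for the remaining libraries. The part of the scaling factor in these sex changes was not tested.

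The pathways next to the other receptors gave 0 calls by genotype. Haemoglobin scavenging and iron recycling had 0 of 14 called and 10 positive (median 0.17), with the iron exporter Slc40a1 at -0.66 (SE 0.60) and the ferritin chain Ftl1 at 0.28 (SE 0.42). Hyaluronan genes had 0 of 11 called and 5 positive (median -0.06). Cemip, which starts hyaluronan breakdown, was at -1.19 (SE 0.52), and the synthase Has2 at 0.50 (SE 0.40). Of 8 folate genes 7 were tested, 0 were called and 0 were positive (median -0.27), with Shmt1 and Tyms, enzymes of one-carbon and thymidylate synthesis, at -0.64 (SE 0.32) and -0.57 (SE 0.31). By labelled sex, 2 of the 11 hyaluronan genes were called higher in male skin, with and without NPYtet replicate 1, beside 1.36% of all genes. Haemoglobin and folate genes had 0 called by sex, but 1 haemoglobin gene was called higher in male skin without that library.

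**Figure D5:**
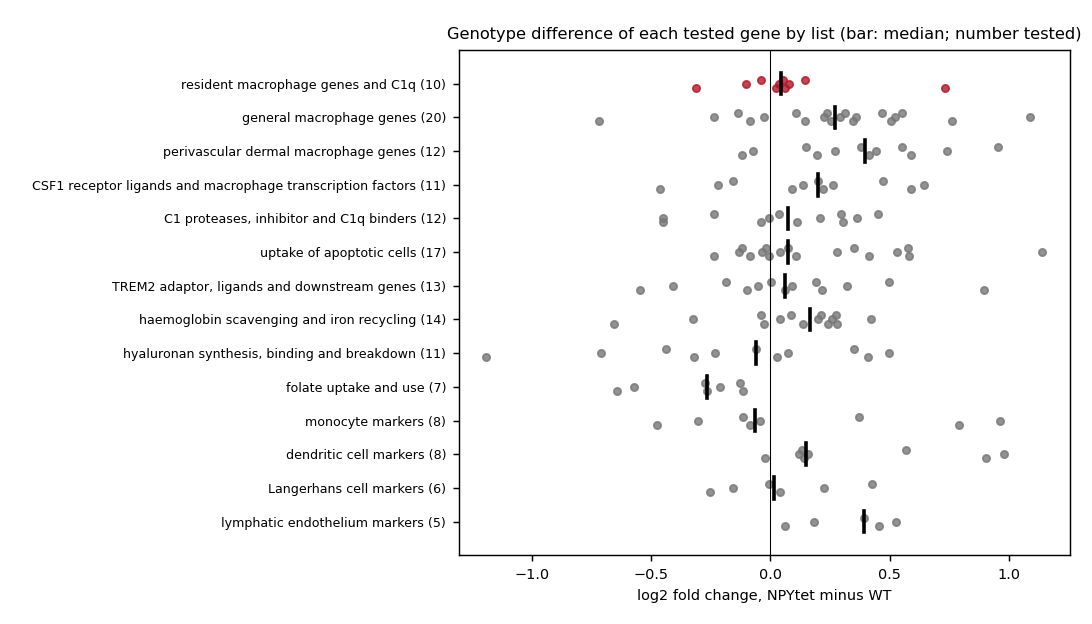
Log2 fold change, NPYtet minus WT (x axis), of every tested gene in 14 lists, with the median of each list as a bar and the number tested in parentheses. The 10 genes of the set lie between -0.31 and 0.73 with a median of 0.05, and the medians of the other 13 lists lie between -0.27 and 0.40.

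Markers of neighbouring myeloid cells were read the same way. Of 9 monocyte markers 8 were tested and 0 called by genotype (3 positive, median -0.06), with Ccr2, the receptor that brings monocytes into tissue, at 0.96 (SE 0.39). Of 8 dendritic cell markers 0 were called (7 positive, median 0.15), with Cd209a at 0.98 (SE 0.38). Langerhans cell markers had 0 of 6 called (3 positive, median 0.02), and Cd207, the langerin gene, was at 0.22 (SE 0.36). Of 7 neutrophil markers 6 were tested and 0 called by genotype, with 4 positive (median 0.20), and 4 of 6 were called higher in male skin by label, with and without NPYtet replicate 1 and beside 1.36% of all genes, among them S100a8 at 5.85 (SE 0.69). Their sum was 51.2 to 663 CPM in NPYtet and 33.8 to 722 CPM in WT. By labelled sex, 1 of 8 monocyte and 1 of 8 dendritic cell markers were called higher in male skin, with and without NPYtet replicate 1 and beside 1.36% of all genes. The other 7 dendritic cell markers had negative sex changes, and the median of that list was -1.07. Of the monocyte markers 5 were positive and 3 negative by labelled sex (median 0.37). Of the Langerhans cell markers 0 of 6 were called by sex. Of the 10 macrophage and C1q genes, none was at 0 reads in any library.

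Genes outside the set whose level followed these genes most closely were found among 10450 tested genes with a mean of at least 10 CPM, by the SD over the 10 libraries of the log2 difference. For the mean of the 3 C1q chains, which itself had an SD of 0.66, the 8 nearest were Unc93b1 (0.20), Pla2g15 (0.21), Rab3il1 (0.22), Cfp (0.22), Unc13d (0.23), Cnp (0.23), Tap2 (0.23) and Scamp5 (0.23). Cfp encodes properdin, a factor of the alternative complement pathway, and Unc93b1 a chaperone of endosomal Toll-like receptors. Their genotype changes ran from -0.08 to 0.23 on the log2 scale. Nearest to Csf1r were Neurl3 (0.17), Nfam1 (0.19) and H2-Q6 (0.20), to Adgre1 Ptpro (0.24), Rassf4 (0.25) and Tmem132c (0.27), and to Mertk Pcmtd2 (0.18), Zfp704 (0.19) and Pfkfb2 (0.20). Nearest to Cd163 were Ampd1 (0.47), Pcdh18 (0.48) and Stxbp6 (0.49), to Lyve1 Pcsk5 (0.33), Adamtsl1 (0.35) and Itgam (0.36), and to Folr2 Pld4 (0.39), Ptafr (0.39) and Coro2b (0.40). Nearest to Trem2 were Csrnp1, B4galnt1 and the basal keratin gene Krt5 (0.28 each). Itgam encodes an integrin chain of macrophages and neutrophils.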

How the data were processed

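Poly(A) RNA of 10 whole skin samples was measured, 1 library per animal number in the labels. P-values therefore rest on the spread between animals, and nothing says how litters were shared. The kit was directional, per the labels' protocols. The authors deposited whole-number counts by Ensembl gene ID, and 49412 of 49671 IDs matched GENCODE M21 (GRCm38, the assembly of mm10); the other 259 took 0.0189% of reads. Per the submitters' processing notes, STAR 2.5.2, Trimmomatic 0.36, DESeq2 1.30.1, FastQC 0.11.8 and bcl2fastq were used, with mm10. No source used here names the annotation release or the strand setting.

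The fit was made with edgeR 4.0.16 (R 4.3.3): filterByExpr by genotype (minimum count 10, total 15), TMM scaling, and the robust quasi-likelihood test on labelled sex and genotype, adjusted by Benjamini and Hochberg over 18060 genes and called at 0.05. Differences are log2, NPYtet minus WT or male minus female, with 95% intervals. CPM uses the scaled library size, log2 CPM a prior count of 2, and RPKM the union of GENCODE exons. A second fit with a mean for each genotype in each sex gave the difference between sexes. C1q ratios were compared between genotypes by two-sided exact permutation tests without a sex term. A gene with 0 reads is compatible with up to 3 reads, which covers counting error only. Pairs of libraries within a group differed by more than sampling noise.

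The 10 genes and the 25 other lists (235 names in all, each matched) were chosen with earlier results of these data known. All 10 genes are named with their values. From each other list the rule names called genes and up to 4 with the smallest p by genotype, printed in part, and 1 of them is not reported here; lists of other cell types enter as sums. Those genes called by sex that are named were chosen after their values were seen. Alternatives were DESeq2 1.42.0, limma 3.58.1 with voom and quality weights, 3 other scalings, no filter, CPM of at least 1 in at least 5 libraries, no sex term, a replicate block and each library left out. Leaving out NPYtet replicate 5 with WT replicate 2, and these with NPYtet replicate 1, was chosen after seeing the data. The fit was tested on simulated data.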

Additional observations from a re-analysis of the deposited data

How the results depend on the processing

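0 of the 10 genes were called by genotype in all 21 alternatives, and 0 by the difference between sexes in all 15. Over these 21, 166 of 210 genotype values kept their sign and 44, all uncalled, took the other sign. The whole table had 1 called gene, but 35 with DESeq2, 2 with limma voom, 409 with no filter, 0 without NPYtet replicates 1 and 5 and WT replicate 2, and 1 to 8 with single libraries left out (8 without WT replicate 3).

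Genotype values that took the other sign were, with limma voom, Adgre1 -0.18, C1qb -0.22, C1qc -0.18, Lyve1 -0.28, Mertk 0.0035 and Trem2 -0.0023, and without the sex term C1qb -0.063, Folr2 0.16, Mertk 0.11 and Trem2 -0.40. C1qa was 0.014 with upper quartile scaling, and Adgre1 was -0.012 with library totals alone and -0.038 without the 3 libraries. C1qa was 0.14 without NPYtet replicate 5 and WT replicate 2. With the replicate block Csf1r was -0.10, C1qb -0.094, C1qc -0.051, Mertk 0.41 and Trem2 -0.23, and 0 of 10 were called. Replicate numbers are not stated to pair animals: deviations of same-numbered libraries correlated at -0.26, 0.30, 0.64, 0.09 and 0.08, and 0 of 5 matched their own number best.

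With single libraries left out, genotype values ran from -0.16 to 0.24 for Csf1r, -0.17 to 0.38 for Adgre1, -0.23 to 0.21 for C1qa, -0.16 to 0.25 for C1qb, -0.10 to 0.26 for C1qc, 0.13 to 1.02 for Cd163, -0.28 to 0.37 for Lyve1, -0.53 to -0.13 for Folr2, -0.29 to 0.32 for Mertk and -0.13 to 0.26 for Trem2, and the log2 difference in C1qb to C1qa from -0.053 to 0.069. Sex values ran from -0.11 to 0.32 for C1qa and -0.19 to 0.17 for C1qc.

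By sex, 1 of 10 genes was called, but 5 with no filter, 0 without the 3 or the 2 libraries, and 0 to 4 with single libraries left out (4 without WT replicate 4, 2 without WT replicate 1, 0 without WT replicate 2 or 3 or NPYtet replicate 3, 4 or 5). Calls by sex over all genes were 448 of 18060 in the main fit and 2380 of 32857 with no filter. They were 949 of 18674 without the 3 and 666 of 18286 without the 2 libraries. Without WT replicate 4 or 1 they were 2725 of 18321 and 669 of 18311. Without WT replicate 2 or 3 they were 209 of 18403 and 58 of 18317. Without NPYtet replicate 3, 4 or 5 they were 97 of 18249, 89 of 18274 and 579 of 18401. Sex values of the other sign were C1qc 0.062 with DESeq2 size factors, C1qa -0.37 and C1qb -0.038 with library totals alone, and C1qa -0.089 without the 3 and -0.19 without the 2 libraries. With library totals alone Cd163 was -1.97 and uncalled (edgeR adjusted p = 0.0642), Folr2 was called at -1.98, and the median sex change of all genes was -0.46 instead of -0.07. The cause of these changes was not tested. Medians of the gene lists, which had 0 genes called by genotype in the main fit, moved too. Over the 21 alternatives they ran from -0.020 to 0.49 for general macrophage genes, -0.035 to 0.65 for perivascular macrophage genes, -0.12 to 0.15 for TREM2 signalling, -0.13 to 0.32 for haemoglobin genes, -0.51 to 0.10 for hyaluronan genes, -0.35 to 0.0054 for folate genes, -0.51 to 0.23 for monocyte, -0.90 to 0.78 for neutrophil, -6.21 to -0.98 for hair and 0.049 to 0.94 for fibroblast markers. Of these lists only hair markers had called genes in any alternative, 3 of 13 with DESeq2 and 13 of 13 with no filter. Folr2 and Trem2, with as few as 23 and 43 reads in a library, have the least depth.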

Other observations

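The C1qb to C1qa ratio differed by labelled sex, a comparison chosen after the values were seen and so given with no test. It was 1.18 to 1.43 in the 5 libraries labelled male and 1.02 to 1.10 in the 5 labelled female, and the ranges of C1qc to C1qb were 0.604 to 0.747 in libraries labelled male and 0.822 to 0.941 in those labelled female. NPYtet replicate 1, labelled female, had the Xist and Ddx3y levels of a male library but a C1qb to C1qa ratio of 1.02, the lowest of all, so the separation holds by label only. Of all genes 8.46% did not overlap in CPM between the labelled sexes, but no such share was computed for ratios between genes. The 3 libraries of lowest scaling factor, all labelled male, had ratios of 1.43 in NPYtet replicate 5 and 1.20 and 1.31 in WT replicates 2 and 5, and the part of the scaling factor was not tested.

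The other cell type lists had 0 genes called by genotype. B cell markers had 5 of 5 positive (median 1.19 on the log2 scale), with sums of 33.9 to 187 CPM in NPYtet and 21.1 to 74.6 CPM in WT. T cell markers had 5 of 7 positive (median 0.54), mast cell markers 4 of 6 (median 0.18), blood endothelium markers 6 of 6 (median 0.19), skeletal muscle markers 3 of 7 (median -0.08), keratinocyte markers 3 of 7 (median -0.02) and Schwann cell markers 3 of 6 (median 0.03).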
